A study of Callithrix jacchus with 4 samples.

Results

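The difference between 14 days and 1 day after the dopamine neuron toxin MPTP was examined in the substantia nigra pars compacta of the common marmoset. It uses 2 of the 4 arrays of the series, the one of the animal killed at 1 day and the one of the animal killed at 14 days, and all 18014 genes that could be named. Both animals were 3-year-old males that received 2.5 mg/kg MPTP in 1 intravenous injection under pentobarbital, and the other MPTP animals, killed at 2 h and 6 h, were treated alike. A single vehicle animal was the partner on every array, labelled with Cy3, while each MPTP animal was labelled with Cy5, and no dye swap was made. A strip of the nucleus on 1 side of the brain was cut out by laser, so the samples hold every cell type of that strip, and the RNA was amplified in 2 rounds before hybridisation to a human whole-genome oligonucleotide array. Marmoset RNA was thus read by human probes.

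The dopamine neurons of this nucleus project to the striatum and are the cells lost in Parkinson's disease. MPTP is turned into a charged metabolite in glia, enters these neurons through the dopamine transporter and inhibits complex I, the entry of the respiratory chain in mitochondria. Microglia and astrocytes are known to respond after such an injury, microglia with phagocytosis and complement and astrocytes with filament proteins and matrix.

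Each value is the log2 ratio of MPTP over vehicle on 1 array, centred on the median of that array, and the difference is the 14 days ratio minus the 1 day ratio. The vehicle RNA was the same on both arrays, so the difference sets 1 MPTP animal against 1 other MPTP animal. With 1 animal at each time there are no replicates and no test was possible; higher and lower describe these 2 animals only, and time and animal cannot be told apart. A ± value beside a gene is the SD over the features (spots) of that gene and not over animals. The scale and the direction of the deposited ratios were inferred, and if the direction were opposite every sign would turn. In such bulk tissue, fewer cells of a type and less RNA per cell cannot be told apart.

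The bulk of the genes lay close to 0. The median difference over all genes was 0.00092, with quartiles of −0.21 and 0.17, and the SD was 0.51. At 14 days 414 genes (2.3%) were at least 2-fold higher than at 1 day and 452 (2.51%) at least 2-fold lower, while 50.7% lay above 0 and 49.3% below. These shares are the background for the counts given below. The median equals the offset between the centres of both arrays, which is the difference of any feature with the same deposited value at both times. Of all genes 333 (1.85%) lay at this offset and count as above 0, and of the others 49.7% lay above 0 and 50.3% below. Genes read by 1 feature passed 2-fold in either direction in 6.5% of cases, against 2.39% of the 7411 genes with 2 or more features. The SD over genes was 0.59 with 1 feature and 0.25 for the 71 genes with 10 or more.

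Repeated features of a gene agreed little. For the 5162 genes with exactly 2 features the differences of both features correlated across genes with a Pearson r of 0.031 and a Spearman rho of 0.044. The rho was 0.057 for the 3441 genes whose features carry the same sequence record and 0.017 for the 1721 with different records. Why agreement was low also within 1 record was not tested. Of the 5162 genes, 51.5% had both features on the same side of 0. These points share 2 arrays, and genes are not independent replicates. For the 287 members of the gene lists used below the share was 56.1% (Spearman rho 0.16), and for genes in no list it was 51.2%. All features of a gene lay on 1 side of 0 for 43.3% of the genes with 2 or more features, or 41.1% without 165 genes that had a feature listed at exactly 0 on both arrays. By direction, 1627 of these 7411 genes had every feature above 0 (1462 without those 165) and 1583 had every feature below. These are the background for such counts in the lists. A gene below with no ± value was read by 1 feature and has no second reading on these arrays. Features of near-identical families, such as globins, metallothioneins, HSPA1A and its relatives and the GST genes, may read several members.

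**Figure D1:**
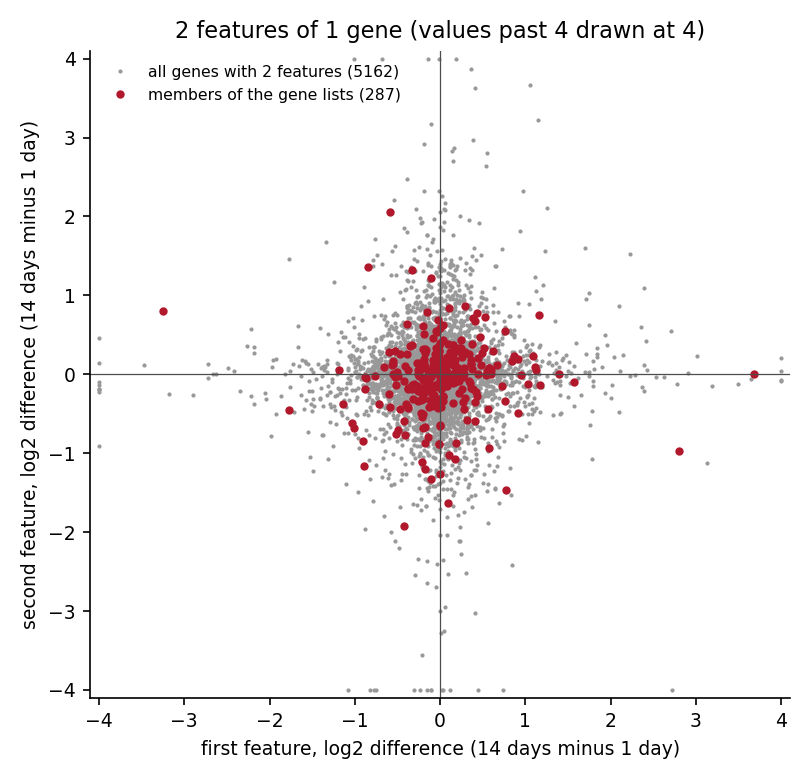
Log2 difference (14 days minus 1 day) of the first feature on the x axis and of the second feature on the y axis, for the 5162 genes with 2 features (grey) and the 287 list members among them (red), with values past 4 drawn at 4. The points spread along both axes and not along the diagonal, with a Spearman rho of 0.044 over all of these genes.

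Of the genes with 2 or more features, 11 (0.148%) had every feature at least 2-fold higher at 14 days and 5 (0.0675%) every feature at least 2-fold lower. The closest features among those higher belonged to NCKIPSD, an SH3 adaptor of the actin cytoskeleton, with a ratio of −0.41 at 1 day and 0.68 at 14 days and a difference of 1.09 ± 0.04 (SD over 2 features). SNX18, an endosomal sorting nexin, lay at 0.25 at 1 day and 1.42 at 14 days (1.17 ± 0.05, 2 features). PLEKHB2, an endosomal membrane protein, lay at −0.15 and 1.02 (1.17 ± 0.08, 2 features). In these genes both features gave close to the same difference. They were chosen for features that all passed 2-fold and lay close together, so this agreement follows from the choice and is no support for them. Of all named features, 3.14% were at least 2-fold higher and 3.41% at least 2-fold lower. TRAM2, a helper of collagen synthesis in the endoplasmic reticulum, lay at −1.22 and 0.17 (1.39 ± 0.24). PGAM5, a mitochondrial phosphatase, lay at −1.16 and 0.23 (1.39 ± 0.51), and TPM2, the beta tropomyosin of muscle and fibroblasts, at −0.81 and 0.87 (1.68 ± 0.60). The remaining named genes were wider: SWAP70 at 1.75 ± 0.92, TUBB1 at 1.88 ± 0.50, DPP9 at 2.19 ± 1.47 and TBC1D32 at 2.36 ± 1.85. Both TUBB1 features held an exact 0 at 1 day or 14 days.

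The 5 genes lower with every feature were led by PPIL6, a cyclophilin-like protein of ciliated cells, at −2.61 ± 2.17, whose features ranged from −4.15 to −1.08 and included an exact 0. NAALAD2, a glutamate carboxypeptidase that cleaves N-acetylaspartylglutamate, lay at 0.46 at 1 day and −0.90 at 14 days (−1.36 ± 0.18). PLPP5, a lipid phosphatase, lay at 0.11 and −1.18 (−1.29 ± 0.34). GOLGA3, a golgin of the Golgi apparatus, lay at 1.18 and −0.07 (−1.25 ± 0.20), and MYO7A, an unconventional myosin of sensory hair cells, at 0.80 and −0.40 (−1.19 ± 0.17). PPIL6 lay at −0.26, −0.05 and 0.00146 at 2 h, 6 h and 14 days and at 2.62 at 1 day, which stood apart. MYO7A was above vehicle at 2 h (0.42), 6 h (0.82) and 1 day, and GOLGA3 ranged from −1.18 at 2 h to 1.18 at 1 day. For PLPP5 and NAALAD2 the 14 days value lay farthest from vehicle of the 4 arrays.

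The 6 highest and the 6 lowest genes were each read by 1 feature. JADE1, a subunit of a histone acetyltransferase complex, lay at −0.04 at 1 day and 6.28 at 14 days, a difference of 6.32. GAS2L1, a linker of actin and microtubules, lay at −0.13 and 5.95, LRRC41 at 0.59 and 6.01, and ADAT3, a tRNA-editing subunit, at 0.85 and 5.48. In these 4 genes the earlier arrays lay within 2-fold of vehicle, except ADAT3 at 2 h (2.11), and the 14 days array stood far from it. In the other direction, AVP, the vasopressin precursor, lay at 5.88 at 1 day and 0.57 at 14 days (−5.30), DYNC2I1, a dynein chain of cilia, at 5.05 and −0.44 (−5.49) and HOXC12 at 4.75 and −0.53 (−5.28). CWC22, a splicing factor, lay at 5.23, 0.27, 5.51 and 0.28 from 2 h to 14 days, so it was high at 2 h and at 1 day and close to vehicle at 6 h and 14 days. All of the 12 lowest genes had a log2 ratio of at least 4 at 1 day, so their differences describe high readings on the 1 day array.

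Against this background 38 lists of genes were described, 10 of cell types and 28 of pathways and families. Of their 890 measured members 13 (1.46%) were at least 2-fold higher at 14 days and 20 (2.25%) at least 2-fold lower, both shares below the background of 2.3% and 2.51%. The medians of the lists ran from −0.28 for general neuronal markers to 0.29 for microglia and macrophage markers. The 4 lowest lists were general neuronal markers, proteasome subunits, heat shock proteins and clock genes, and the 4 highest were microglial, erythrocyte, reactive astrocyte and immediate early genes. Shifts within the lists were thus mostly smaller than 2-fold and lay in the share of members above or below 0.

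**Figure D2:**
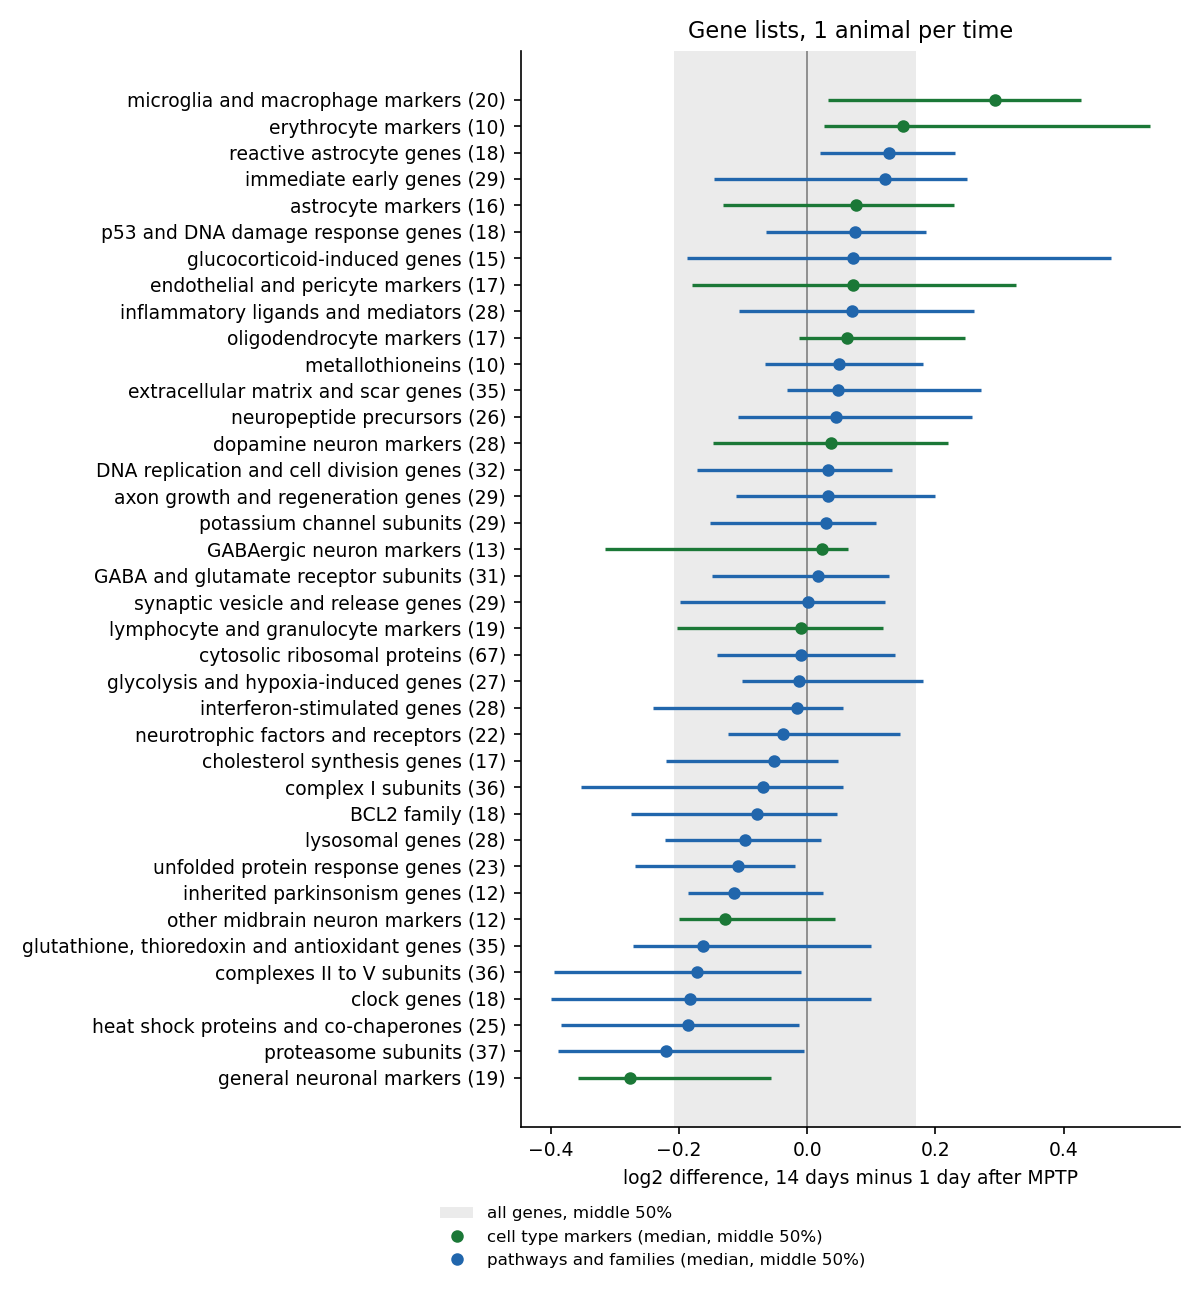
Median log2 difference (14 days minus 1 day) of each gene list (points) with the first to the third quartile of its members (lines), for cell type markers (green) and pathways and families (blue), with the number of members measured in brackets. Grey marks the quartiles of all genes, −0.21 to 0.17, and only the medians of the general neuronal, proteasome and microglial lists lie outside it.

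General neuronal markers were lower at 14 days in 15 of 19 genes (78.9%, background 49.3%), with a median of −0.28. RBFOX3, which encodes the nuclear antigen NeuN of mature neurons, was the only one past 2-fold, with ratios of 0.23, 0.02, 1.05 and −0.59 at 2 h, 6 h, 1 day and 14 days and a difference of −1.64. SNAP25, a synaptic membrane fusion protein, lay at 0.55 at 1 day and −0.12 at 14 days (−0.67). MAP2, the microtubule protein of dendrites, lay at 0.13 and −0.33 (−0.46 ± 0.02, 2 features), and the RNA-binding protein ELAVL4 at −0.30 and −0.67 (−0.31 ± 0.20, 3 features). The neurofilament chains followed in the same direction. NEFL was lower by 0.28 (−0.28 ± 0.07, 2 features), NEFM by 0.29 (−0.29 ± 0.53) and NEFH by 0.36 (−0.36, 1 feature). The synaptic vesicle proteins SYP and SYN1 lay on the other side, at 0.37 and 0.20 ± 0.08. Over the 9 members with 2 or more features the median was −0.12, with 3 genes below 0 with every feature and 1 above. MAP2, ELAVL4, the neurofilaments, SYP and SYN1 were picked after their values were seen.

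Dopamine neuron markers centred near 0. Their median was 0.04 and 1 was 2-fold lower. Above 0 lay 16 of 28, or 15 without SLC6A3, which is at the offset. TH, tyrosine hydroxylase, which starts dopamine synthesis, had ratios of 0.90, 0.64, 0.39 and 0.50 from 2 h to 14 days and a difference of 0.11 ± 0.08 (2 features). Its features differed in the ratio itself, with 1 feature at 0.87 and 0.92 at 1 day and 14 days and the other at −0.09 and 0.08, so the level against vehicle is not settled by these readings, while the difference between the times was small in both. DDC, the next enzyme of the pathway, lay at 0.46 at 1 day and 0.31 at 14 days. SLC18A2, which loads dopamine into vesicles, was at 0.27 and 0.17, the potassium channel KCNJ6 at 1.01 and 0.99, and the transcription factor NR4A2 at 0.21 and 0.06. The feature of the dopamine transporter gene SLC6A3, the most specific marker of these neurons, was listed at exactly 0 at 1 day and 14 days and gave no reading here. The markers that differed most, ALDH1A1 and DLK1, were each read by 1 feature. ALDH1A1, an aldehyde dehydrogenase of the ventral tier, lay at 0.35, 1.06, 1.23 and 0.09 from 2 h to 14 days, a difference of −1.14. DLK1, a transmembrane protein related to Notch ligands, lay at 0.77, 0.73, 0.72 and −0.26 (−0.98). Both were above vehicle on the 3 earlier arrays and near or below it at 14 days. SNCG, gamma synuclein, was the highest at 0.37 and 0.88 (0.51), and was picked after its values were seen. FOXA1, which helps to keep dopamine neurons in their adult state and was picked after its values were seen, was read by 11 features, all lower at 14 days, with ratios of −0.78, −0.26, 0.35 and −0.16 from 2 h to 14 days and a difference of −0.52 ± 0.11. Its sister factor FOXA2, picked alongside it, lay at 0.21 and 0.14 (3 features).

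**Figure D3:**
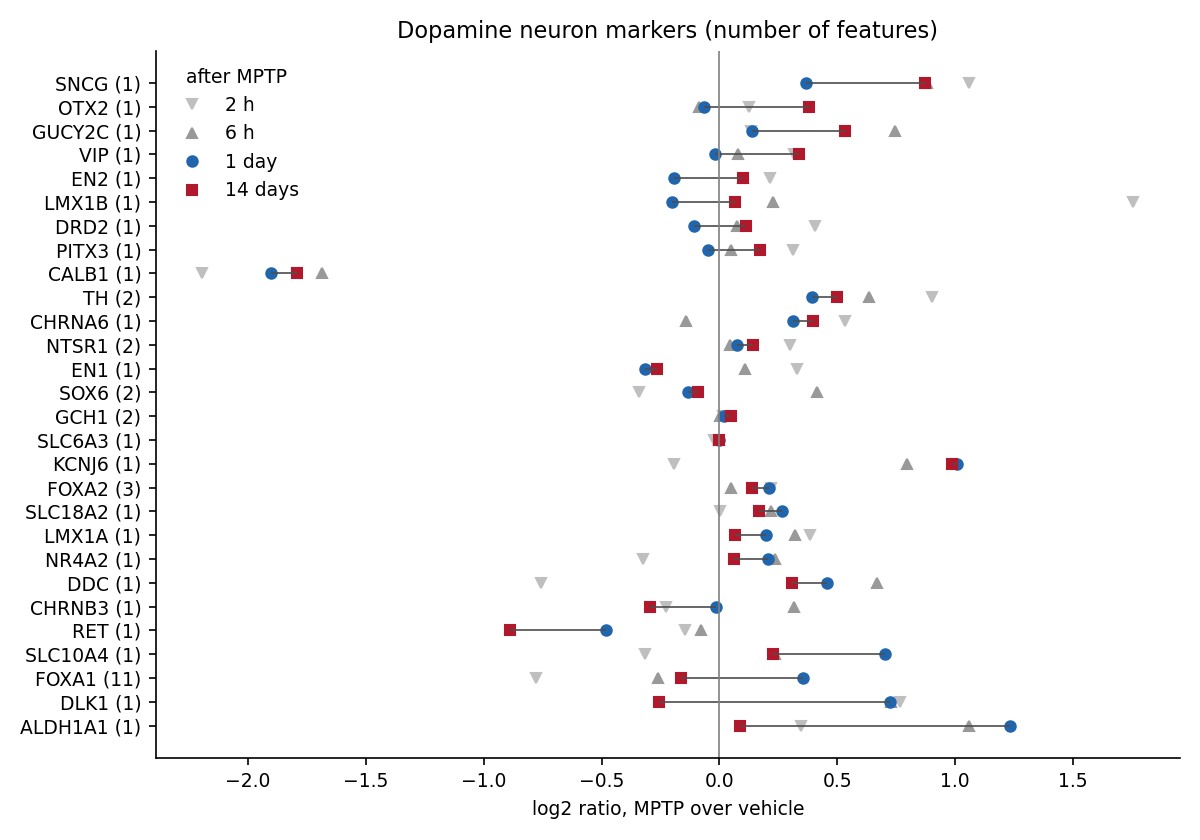
Log2 ratio of MPTP over vehicle of 28 dopamine neuron markers on the 4 arrays (2 h and 6 h grey, 1 day blue circles, 14 days red squares), 1 animal per time, with a line from the 1 day to the 14 days value and the number of features in brackets. TH lies at 0.39 and 0.50, while ALDH1A1 (1.23 and 0.09) and DLK1 (0.72 and −0.26) have the longest lines.

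Markers of other neurons were mixed. The GABAergic list had a median of 0.02, with 7 of 13 members above 0. Both GABA-synthesising enzymes were lower, GAD1 at 0.10 at 1 day and −0.54 at 14 days (−0.57 ± 0.32, 3 features, all below 0) and GAD2 at −0.96 and −1.83 (−0.87), while the transcription factors GATA3 (−0.30 and 0.77) and LHX6 (0.95 ± 0.29) were higher. For LHX6, 1 feature was listed at exactly 0 at 14 days, and the other gave 0.75. Other midbrain neuron markers had a median of −0.13, with 8 of 12 below 0. SLC18A3, which loads acetylcholine into vesicles, lay at 0.91, 0.81, 1.57 and −1.76 from 2 h to 14 days (−3.33, 1 feature), and CHAT, the enzyme that makes acetylcholine, at 0.01 and −0.45 (−0.46 ± 0.59). The values of both cholinergic genes, which share a locus in which SLC18A3 lies within an intron of CHAT, were lower at 14 days, but with different sizes. For CHAT 1 feature differed by −0.88 and the other by only −0.04, and SLC18A3 has no second reading.

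Genes of synapses and excitability centred on 0. Synaptic vesicle and release genes had a median of 0.00158 (16 of 29 above 0, 1 of them at the offset), with NSF, the ATPase that recycles fusion complexes, past 2-fold at 0.03 and −1.08 (−1.11 ± 0.93). Potassium channel subunits had a median of 0.03 (16 of 29 above 0), and the leak channel KCNK2 lay at 1.19 and 0.11 (−1.08). GABA and glutamate receptor subunits had a median of 0.02 (16 of 31 above 0). Of these, GABBR2, a subunit of the GABA-B receptor, lay at −1.10 and 0.32 (1.43) and the kainate receptor subunit GRIK3 at −0.34 and 0.73 (1.07), each with 1 feature. Neuropeptide precursors had a median of 0.04 (14 of 26 above 0), with AVP (given above) and CALCB (0.37 and −1.02, difference −1.39) 2-fold lower and NTS, neurotensin, 2-fold higher at −0.78 and 0.28 (1.06). The shares above 0 in these 4 lists ran from 51.6% to 55.2%, beside the background of 50.7%.

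Subunits of the respiratory chain beyond complex I were lower in 28 of 36 genes (77.8%, background 49.3%), with a median of −0.17, and none passed 2-fold. The list median was 0.19 above vehicle at 1 day and 0.06 at 14 days. COX7C, a small subunit of cytochrome c oxidase, lay at −0.29, 0.30, 0.44 and −0.49 from 2 h to 14 days (−0.93). SDHA, the catalytic subunit of complex II, lay at 0.23 and −0.53 (−0.76 ± 0.54, 2 features), and ATP5F1B, the catalytic beta chain of the ATP synthase, at 0.20 and −0.50 (−0.70). In these 3 genes the 1 day value was above vehicle and the 14 days value below. Among members with 2 or more features, 5 were below 0 with every feature, among them UQCRH of complex III (−0.60 ± 0.16) and ATP5MG of the ATP synthase (−0.39 ± 0.01), and 4 were above, led by ATP5F1D (0.34 ± 0.13). By complex, with groups formed after the values were seen, 3 of 3 members of complex II, 7 of 8 of complex III, 7 of 10 of complex IV and 11 of 15 of the ATP synthase were lower, with medians of −0.11, −0.30, −0.11 and −0.14.

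Complex I, the target of the MPTP metabolite, lay nearer to 0. Its subunits had a median of −0.07, or −0.14 over the 14 with 2 or more features, with 21 of 36 (58.3%) below 0. Of those 14 subunits, 8 were lower with every feature and 3 higher. NDUFS1, the largest subunit of the complex, lay at −1.15, −0.71, −0.01 and −0.52 from 2 h to 14 days (−0.50 ± 0.12), NDUFA1 at 0.42 and 0.03 at 1 day and 14 days (−0.40 ± 0.03) and NDUFA9 at 0.08 and −0.22 (−0.30 ± 0.06). NDUFB2 had the largest difference, at 0.70 and 0.02, but its features were far apart (−0.69 ± 0.73). On the other side NDUFS7, a core subunit near the quinone site, lay at 0.55 and 0.84 (0.30 ± 0.06) and NDUFB7 at 0.09 and 0.38 (0.29 ± 0.06). Apart from NDUFB2 and NDUFA6, the features of the subunits named here differed by less than the differences themselves, and the subunits lay on both sides of 0. SDHA, NDUFB2, COX7C and NDUFA6 (0.60 ± 0.72) follow from the rule for named genes, and the other subunits were picked after their values were seen. For NDUFA6, 1 feature was listed at exactly 0 at 14 days, and the other gave 0.088.

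The proteasome is the particle that degrades ubiquitin-tagged proteins. Of its 37 measured subunits 29 (78.4%, background 49.3%) were lower at 14 days, with a median of −0.22, or −0.14 over the 15 with 2 or more features. The 7 alpha subunits of the core (PSMA) were all lower, with a median of −0.47 and a range from −0.60 to −0.12. The 10 beta subunits (PSMB), which hold the catalytic sites, had a median of −0.20 with 8 lower, the 5 ATPases of the base (PSMC) a median of −0.29 with 4 lower, and the 12 other regulatory subunits (PSMD) a median of −0.16 with 10 lower. The 3 activator subunits (PSME) were all above 0, with a median of 0.09. These subgroups were formed after the values were seen. Of those 15 members, 8 were lower with every feature and none was higher with every feature. Over all 7411 genes with 2 or more features these counts were 1583 and 1627.

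Subunits farther from 0 than the list median show how the times compare. PSMC6, read by 4 features, lay at −1.93, −1.43, −0.74 and −1.13 from 2 h to 14 days, a difference of −0.39 ± 0.08, so it was below vehicle at each time and nearest to it at 1 day. PSMC2 followed the same order at −1.09, −1.04, −0.30 and −1.003 (−0.71). PSMA5 lay at 0.28 at 1 day and −0.33 at 14 days (−0.60), and PSMA2 at −0.09 and −0.64 (−0.55). Of the 8 subunits above 0 the farthest were the base subunits PSMC4, at 0.52, 0.89, −0.07 and 1.44 (1.51), and PSMD2, at −0.10, −0.05, −0.22 and 0.69 (0.92). Each of these was read by 1 feature, and PSMC4 was the only subunit past 2-fold. PSMC6, PSMC2, PSMA5 and PSMA2 were picked after their values were seen.

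Heat shock proteins and their co-chaperones, which refold damaged proteins, were lower in 19 of 25 genes (76%, background 49.3%), with a median of −0.19. CHORDC1, a co-chaperone of HSP90, was 2-fold lower, at 0.33 at 1 day and −0.70 at 14 days (−1.03 ± 0.19, 2 features). HSP90AA1, the inducible HSP90 chain, lay at −0.47, −0.99, −0.18 and −0.99 from 2 h to 14 days (−0.74 ± 0.22, 4 features). DNAJA1, an HSP70 co-chaperone, lay at −0.32 and −0.96 (−0.64 ± 0.16), and HSPA4, an exchange factor of HSP70, at −0.24 and −0.82 (−0.59 ± 0.25). These 4 genes lay within 0.33 of vehicle at 1 day and at least 0.70 below it at 14 days. STIP1, which links HSP70 and HSP90, was also lower (−0.40 ± 0.04), as were the mitochondrial chaperonin HSPD1 (−0.22 ± 0.01) and the endoplasmic reticulum chaperone HSPA5 (−0.25 ± 0.08). The stress-induced HSPA1A lay at −0.68 at 1 day and −0.71 at 14 days (difference 0.06 ± 0.21, 3 features), and the small heat shock proteins HSPB8 (0.59 ± 0.75) and HSPB1 (0.13 ± 0.11) lay above 0. Of the 18 members with 2 or more features 9 were lower with every feature and 3 higher. DNAJA1, HSPA4, STIP1, HSPD1, HSPA5 and the small heat shock proteins were picked after their values were seen.

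Unfolded protein response genes were lower in 19 of 23 (82.6%, background 49.3%), mostly by little, with a median of −0.11. Of the 13 with 2 or more features, 3 were lower with every feature and 1 higher, beside 1583 and 1627 of all 7411 such genes. DDIT3, the transcription factor CHOP of prolonged endoplasmic reticulum stress, lay at −0.44 at 1 day and −1.15 at 14 days (−0.71), and SDF2L1, a chaperone partner in that compartment, at 0.80 and 0.25 (−0.55). The highest was ATF3 at 0.22, picked after its value was seen. Lysosomal genes had a median of −0.10 with 19 of 28 below 0, or −0.028 over the 11 with 2 or more features, and 8 of the 9 subunits of the lysosomal proton pump, grouped after the values were seen, lay below 0 with a median of −0.21. Of these ATP6V1H was past 2-fold, at −0.02 and −1.19 (−1.17 ± 1.06), and SCARB2, the receptor that carries glucocerebrosidase to lysosomes, lay at 0.51 and −0.01 (−0.53 ± 0.49). For SCARB2, 1 feature was listed at exactly 0 at 14 days, and the other gave −0.18. Genes of inherited parkinsonism had a median of −0.11, with 8 of 12 below 0, and the 2 farthest from 0 were HTRA2, a mitochondrial protease (0.74), and the kinase LRRK2 (0.56), both higher. The medians of the proteasome, heat shock, unfolded protein response and lysosomal lists thus lay below 0. Above 0 lay 8 of 37, 6 of 25, 4 of 23 and 9 of 28 of their members. Of the 11 lysosomal genes with 2 or more features, 3 were higher with every feature and 2 lower.

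Glutathione, thioredoxin and antioxidant genes had a median of −0.16, with 21 of 35 (60%) below 0, but −0.062 over the 15 with 2 or more features. The genes on the low side included most of those farthest from 0. KEAP1, the sensor that holds NRF2 back, was past 2-fold at 0.91 at 1 day and −0.10 at 14 days (−1.02). GCLM, the regulatory subunit of the rate-limiting enzyme of glutathione synthesis, lay at −0.28, −0.29, 0.52 and −0.36 from 2 h to 14 days (−0.88 ± 0.04, 2 features). GSR, which regenerates glutathione, lay at 0.66 and −0.17 (−0.82 ± 0.30), GPX4, which removes lipid peroxides, at 0.52 and −0.33 (−0.85), and the quinone reductase NQO1 at 0.36 and −0.27 (−0.63). These 5 genes were above vehicle at 1 day and below it at 14 days. On the other side lay 14 of the 35 members. GCLC, the partner of GCLM in the same enzyme, was higher with both features (0.21 and 0.067). GSTP1, a glutathione transferase, was the highest of the list, at −0.46, 0.06, 1.86 and 2.28 (0.42), and was far above vehicle at both late times. Metallothioneins, small proteins that hold metal ions, had a median of 0.05 (6 of 10 above 0). MT4 lay at 0.54 and −0.91 (−1.45), MT1E at −0.28 and 0.22 (0.50 ± 0.48) and MT2A at −0.58 and −0.49 (0.08 ± 0.19). GSR, GPX4, NQO1, GCLC and GSTP1 were picked after their values were seen.

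**Figure D4:**
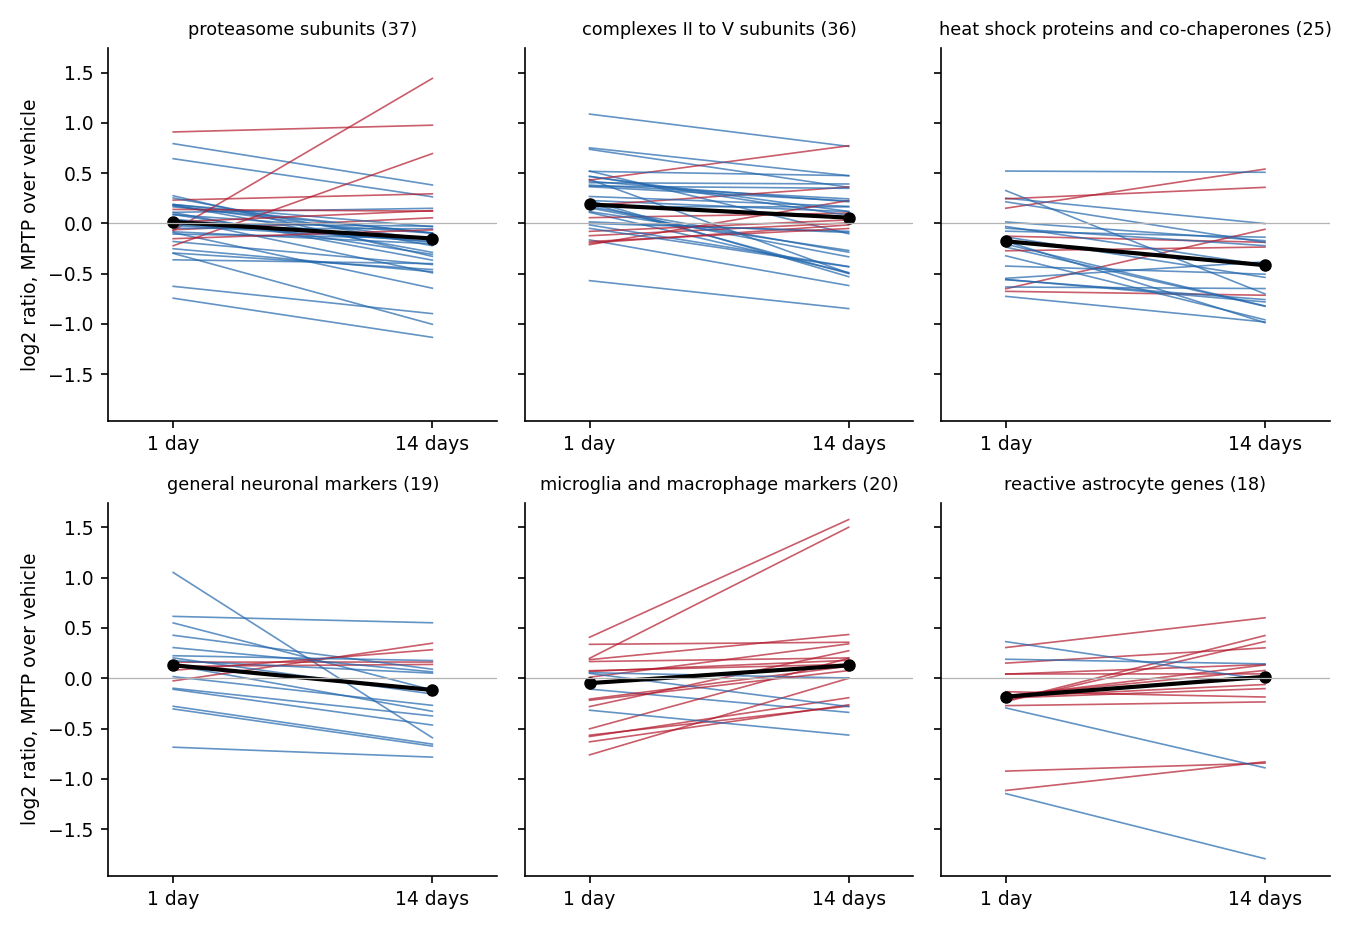
Log2 ratio of MPTP over vehicle (y axis) of each member of 6 gene lists at 1 day and 14 days, 1 animal per time, with lines coloured red where the median difference over a gene's features was above 0 and blue where it was not, and the list median in black. In the proteasome, complexes II to V, heat shock and general neuronal lists the blue lines are the majority (29, 28, 19 and 15 members), and in the microglial and reactive astrocyte lists the red lines are (16 and 14).

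Microglia and macrophage markers were the highest list, with 16 of 20 (80%, background 50.7%) above 0 and a median of 0.29. CD163, a scavenger receptor for haemoglobin on perivascular macrophages, lay at −0.05, −0.12, 0.20 and 1.50 from 2 h to 14 days (1.30). C1QC, a chain of the complement component C1q that microglia make, lay at −0.24, 0.60, 0.41 and 1.58 (1.17). Both lay within 0.60 of vehicle up to 1 day and over 2-fold above it at 14 days. The other C1q chains lay on the same side, C1QA at −0.76 and 0 (0.76, with an exact 0 at 14 days) and C1QB at −0.28 and 0.27 (0.55 ± 0.94), though the features of C1QB, at −0.11 and 1.22, lay on both sides of 0. The antigen-presenting genes HLA-DRA (−0.50 and 0.20, difference 0.70) and CD74 (−0.58 and −0.19, difference 0.39) were higher too. The receptors of resident microglia differed less, CX3CR1 by 0.37, CSF1R by 0.33, P2RY12 by 0.33 and TMEM119 by 0.29. The lysosomal glycoprotein CD68 (−0.23), the transcription factor SPI1 (−0.25) and LAPTM5 (−0.45 ± 0.51) lay below 0. With the exception of CD163 and C1QC these genes were picked after their values were seen. Of the list, 15 genes were read by 1 feature, and over the 5 with more the median was 0.021. Lymphocyte and granulocyte markers had a median of −0.00905 (8 of 19 above 0), with CD3D of T cells at −0.77 and S100A8 of granulocytes at −0.74.

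Reactive astrocyte genes were higher in 14 of 18 (77.8%, background 50.7%), with a median of 0.13. Of the 9 with 2 or more features, 5 were higher with every feature while none was lower. The 5 became 4 without 1 gene that had a feature listed at exactly 0 on both arrays. VIM, the intermediate filament vimentin, lay at −1.12 at 1 day and −0.83 at 14 days (0.28 ± 0.01, 2 features). GFAP, the filament protein that defines reactive astrocytes, lay at −0.53, −0.37, −0.92 and −0.84 from 2 h to 14 days (0.08 ± 0.11), but 1 of its 2 features was listed at exactly 0 at 1 day and 14 days and gave no reading, and the other lay at −1.84 and −1.69. The metalloreductase STEAP4 lay at −0.23 and 0.37 (0.60). The 2 genes of the list farthest from 0 were lower, the copper protein CP at −1.15 and −1.79 (−0.65) and the chemokine CXCL10 at −0.29 and −0.89 (−0.60). General astrocyte markers had a median of 0.08 (10 of 16 above 0), and the farthest, GJA1 (0.52 ± 0.93) and ID3 (0.49 ± 1.17), had features on both sides of 0. VIM and STEAP4 were picked after their values were seen.

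Oligodendrocyte markers had a median of 0.06 with 12 of 17 (70.6%) above 0. CNP, an enzyme of myelin, lay at −0.48 and 0.10 (0.58 ± 0.40) and MBP, myelin basic protein, at −1.06 and −0.78 (0.27 ± 0.08), each with 2 features on the high side, while the precursor marker CSPG4 lay at 0.83 and 0.09 (−0.73). Endothelial and pericyte markers had a median of 0.07 (10 of 17 above 0) and −0.13 over the 7 with more than 1 feature. TIE1, a receptor of vessel endothelium, lay at −0.77, −1.12, −0.34 and 3.85 from 2 h to 14 days (4.19, 1 feature), far from the other members, of which the next was ACTA2, smooth muscle actin, at 0.78. Erythrocyte markers had a median of 0.15, with 9 of 10 above 0, or 0.099 over the 5 with 2 or more features. Only 1 of these 5 was above 0 with every feature, and the rest had features on both sides of 0. HBB, beta globin, lay at 0.29 and 0.97 (0.68), ALAS2, which starts haem synthesis in red cell precursors, at 0.45 and 1.07 (0.63 ± 0.14) and HBA1 at 0.92 and 1.12 (0.20). HBG1 had the largest difference with features on both sides of 0 (0.92 ± 2.67). The erythrocyte list stood with the microglial list on the high side at 14 days, with list medians of 0.39 and 0.81 over vehicle at 1 day and 14 days, and the part of blood left in the tissue in the values of CD163 and the other macrophage genes was not tested.

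Inflammatory ligands and mediators had a median of 0.07 with 18 of 28 above 0, or 16 without IL1A and TGFB1, which were listed at exactly 0 at both times. The chemokine CCL7 lay at 0.35 at 1 day and −2.26 at 14 days (−2.61) and the chemokine CCL4 at −0.10 and 0.92 (1.01), so related ligands lay at opposite ends of the list. TNF, read by 2 features, lay at −0.04 and 0.51 (0.54 ± 0.19), and IL1B at −0.27 and −0.47 (−0.20); both were picked after their values were seen, as were IL1A and TGFB1. Interferon-stimulated genes had a median of −0.02 (13 of 28 above 0). RSAD2, the antiviral protein viperin, lay at 2.07 and 0.84 (−1.22 ± 2.87) with features on both sides of 0, and IFI44L at 0.19 and −0.44 (−0.63).

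Immediate early genes, which neurons and glia switch on within minutes of a stimulus, had a median of 0.12 with 19 of 29 above 0, but their widest members pointed both ways. ARC, which acts at active synapses, lay at 0.66, 0.29, 1.02 and −1.23 from 2 h to 14 days (−2.25). FOS lay at 1.50, 1.32, 1.25 and 0 (−1.25), with an exact 0 listed at 14 days. EGR3 lay at 0.88, 0.34, 2.29 and 3.82 (1.53), EGR1 at −1.02 and −0.49 at 1 day and 14 days (0.53) and JUN at −1.05 and −0.84 (0.21). ARC was thus above vehicle on the 3 earlier arrays and below it at 14 days, and EGR3 was above it on each array. Glucocorticoid-induced genes had a median of 0.07 (10 of 15 above 0), led by ANGPTL4 (0.44 and 1.37, difference 0.92) and ZBTB16 (−0.24 and 0.55, difference 0.79). Clock genes had a median of −0.18 with 12 of 18 below 0, and −0.044 over the 12 with more than 1 feature. NR1D2, a repressor of the clock, lay at 0.64 and −0.21 (−0.84 ± 0.24) and the output factor HLF at −0.42 and −1.23 (−0.81). The hour of the day at which each animal was killed is not given in the sources used here.

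Genes of cell death and damage were spread. Targets of p53 and DNA damage response genes had a median of 0.07 (11 of 18 above 0), with RRM2B, a ribonucleotide reductase subunit, at 1.86 at 1 day and −0.02 at 14 days (−1.88) and GADD45A far below vehicle at both, at −2.73 and −3.24 (−0.51). The BCL2 family, which sets the threshold of apoptosis, had a median of −0.08 (11 of 18 below 0). The death-promoting BMF lay at 1.05 and −0.46 (−1.50) and the survival factor MCL1 at −0.01 and −0.94 (−1.06 ± 0.54, 3 features, all below 0). The survival factor BCL2L1 had a median difference of 1.84 ± 2.60, with 1 feature at 0.0082 and the other at 3.68, so its value rests on 1 reading.

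Genes of repair and growth lay near 0 as lists. Extracellular matrix and scar genes had a median of 0.05 with 24 of 35 (68.6%) above 0, and the proteoglycan DCN lay at −0.08 and 0.52 (0.60 ± 0.24, both features above 0) and the laminin chain LAMB1 at −1.30 and −0.81 (0.49). Axon growth and regeneration genes had a median of 0.03 (17 of 29 above 0). RTN4, the growth inhibitor Nogo, lay at −1.63, −1.18, −3.49 and −1.21 from 2 h to 14 days (2.28), so the 1 day array stood apart, and the guidance factor NTN1 lay at 0.21 and 0.91 (0.70 ± 0.98). Neurotrophic factors and receptors had a median of −0.04 (10 of 22 above 0), and the farthest members, both survival factors of dopamine neurons, were higher: CDNF at −0.10 and 0.78 (0.88) and BDNF at −0.16 and 0.49 (0.65 ± 0.15, both features above 0).

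Lists of basic cell functions also lay near 0. Cytosolic ribosomal proteins had a median of −0.00905 with 32 of 67 above 0 and a range from −0.58 (RPS14, ± 0.75 over 4 features) to 0.55 (RPL28, ± 0.51). Glycolysis and hypoxia-induced genes had a median of −0.01 (13 of 27 above 0), or 0.14 over the 15 with 2 or more features, with HK1 (0.74 ± 1.87) and the glucose transporter SLC2A1 (0.69) the farthest. Cholesterol synthesis genes had a median of −0.05 (11 of 17 below 0), led by NSDHL at 1.27 and 0.36 (−0.91) and MVD (−0.66 ± 0.64). DNA replication and cell division genes had a median of 0.03 (19 of 32 above 0, 1 of them at the offset). Their widest members were single features: TOP2A at 4.50, 0.76, −1.25 and −3.36 from 2 h to 14 days (−2.11), MKI67 at 2.02, −0.98, 1.44 and −0.26 (−1.70) and AURKB at −0.27, 0.64, −0.35 and 1.06 (1.41).

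The earlier arrays place these shifts. From 2 h to 14 days the proteasome list had median log2 ratios of −0.22, −0.08, 0.01 and −0.15, so the 1 day array was the one nearest to vehicle and the 14 days value lay between those of 2 h and 6 h. Heat shock proteins were below vehicle throughout, at −0.57, −0.47, −0.18 and −0.42. Complexes II to V lay at −0.05, 0.03, 0.19 and 0.06. In these lists the 1 day value was the highest of the 4 arrays. General neuronal markers lay at 0.23, 0.17, 0.13 and −0.12, and the 14 days value was the only one below vehicle. Microglial markers lay at −0.05, 0.06, −0.05 and 0.13, and reactive astrocyte genes at 0.11, 0.00486, −0.18 and 0.01, lowest at 1 day. Erythrocyte markers lay at 0.60, 0.11, 0.39 and 0.81, a wide range that has no order in time. Each of these points is 1 animal, and the spread between animals at 1 time was not measured.

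**Figure D5:**
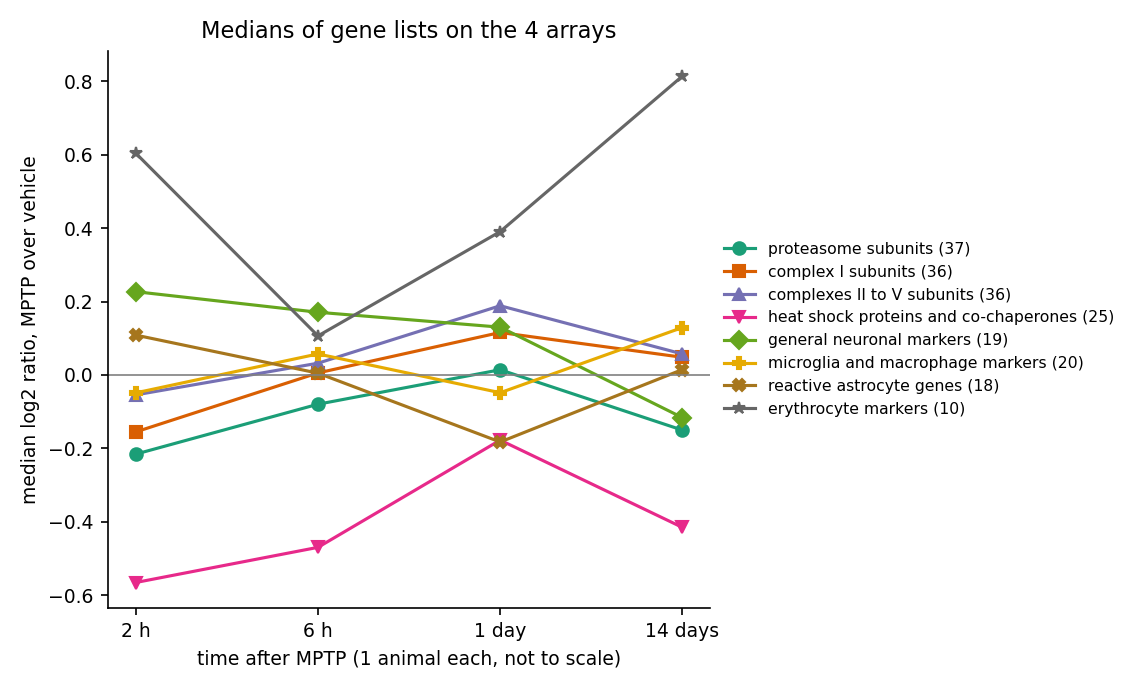
Median log2 ratio of MPTP over vehicle (y axis) of 8 gene lists at 2 h, 6 h, 1 day and 14 days (x axis, not to scale), 1 animal per time, with lines only joining the points of a list. Proteasome, heat shock and respiratory chain lists are highest at 1 day, general neuronal markers are lowest at 14 days (−0.12), and erythrocyte markers range from 0.11 to 0.81.

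Genes with 10 or more features have the most readings behind each value. Their 71 differences ran from −0.61 to 0.50, so none passed 2-fold, and the median SD over features was 0.30, against 0.28 for all genes with 2 or more. In 11 of these genes every feature was lower at 14 days, and in 1 every feature was higher. Over all 7411 genes with 2 or more features these counts were 1583 and 1627. Of those 7411 genes 5162 had exactly 2 features, which fall on 1 side of 0 more easily than 10 or more do. The shares are therefore not directly comparable. Most of the 11 are not named here. UCHL5, a deubiquitinase bound to the proteasome, was the lowest, at −0.61 ± 0.13 over 12 features. SPP1, osteopontin, lay at −0.32 ± 0.08 and RPAP3, an HSP90 co-chaperone, at −0.29 ± 0.08. The exception was TRMT10C, a mitochondrial tRNA enzyme, at 0.19 ± 0.09. These genes were picked after their values were seen.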

How the data were processed

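Per the labels' protocols, laser-captured nigral RNA of 1 MPTP animal (Cy5) was set against that of 1 vehicle animal (Cy3) on each array. For each feature and array the deposited table holds 1 value, taken as a log10 ratio. No value passed 2 in size, some lay exactly at 2, medians were near 0, and exact zeros made up 5.54% at 1 day and 7.38% at 14 days. Image software, background correction and normalization were not given in the sources used here. Without intensities, signal over background is unknown, and precision is limited by the number of arrays.

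The deposited values were multiplied by log2 of 10 and centred on each array's median over 43931 features. Symbols came from the platform annotation: 29033 features had 1 symbol, 97 several and 14801 none, and the last 2 kinds were not used for genes. A gene's ratio is the median over its features, and its difference is the median of the feature differences, which with more than 2 features need not equal the difference of the ratios. All features of 596 genes (3.31%) held an exact 0 at 1 day or 14 days. The lists name 957 genes, of which 890 had a value, with 67 not analysed here. The members and the lists were chosen with earlier results of these data known.

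Named genes were up to 12 each way with all of 2 or more features past 2-fold, the 6 highest and 6 lowest, up to 5 members of each list past 2-fold (or else the 2 farthest from 0), 19 fixed genes of which 17 were measured, and up to 6 each way 2-fold from vehicle on opposite sides at the 2 times. Genes known only by an open reading frame name are not named. Others are said to be picked after their values were seen. Calculations used Python 3.11.15, pandas 2.3.3, numpy 2.4.6, scipy 1.17.1 and matplotlib 3.10.9. They were run on the deposited values with gene labels shuffled and known differences added, and returned those differences. This covers the calculation only. Alternatives were scaling to 1 median absolute deviation, no centring, the mean over features, zeros as not measured, only genes with 2 or more features, features at the scale limit left out, and a 3-fold threshold.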

Additional observations from a re-analysis of the deposited data

Results flagged for a closer look

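Some genes were at least 2-fold from vehicle on opposite sides at 1 day and 14 days. 11 genes were above vehicle at 1 day and below it at 14 days, and 4 the other way. The difference itself was not tested, since each side is 1 animal. Of those high at 1 day the widest were SLC35D3 at 1.45 and −2.22 (−3.67), HSPA14 at 2.06 and −1.56 (−3.62), SLC18A3 (−3.33, given above), MBL1P at 1.02 and −2.28 (−3.30), RYR1 at 1.85 and −1.22 (−3.07) and BTNL8 at 1.73 and −1.22 (−2.95). HSPA14 and RYR1 each had 2 features, with differences from −7.13 to −0.11 and from −5.36 to −0.78. In each, only 1 feature passed from above to below vehicle, at 4.68 and −2.45 for HSPA14 and 3.92 and −1.44 for RYR1. The other feature was below vehicle at both times, at −0.56 and −0.66 for HSPA14 and −0.23 and −1.01 for RYR1. SLC35D3, a transporter-like protein, was above vehicle at 2 h (1.33) and 6 h (1.59) too, so for it the 14 days array stood apart. Of those low at 1 day there were MORN5 at −3.82 and 1.53 (5.35), TOR1A, the torsin ATPase mutated in an inherited dystonia, at −3.62 and 1.03 (4.65), ZNF285 at −1.35 and 1.36 (2.70) and TBC1D32 at −1.15 and 1.21 (2.36). For MORN5 and TOR1A the 1 day value was the one far from the other 3 arrays.

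The 14801 features without a gene symbol, used in no comparison above, differed more than the named ones. At least 2-fold differences were found in 13.4% of them (4.15% higher and 9.26% lower at 14 days) against 6.55% of named features, with an SD of 1.10 against 0.59.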

How the results depend on the processing

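No named gene changed sign, other than SLC6A3 (0 without centring), while 10 list medians, each within 0.072 of 0, changed sign under at least 1 alternative. The 414 higher and 452 lower genes stayed within 1.5 times under scaling to 1 median absolute deviation, no centring, the mean over features, zeros as not measured and the scale limit left out. They came to 140 and 157 at 3-fold, and to 11 and 5 with all of 2 or more features past 2-fold, where by construction 7411 genes were counted. With zeros as not measured the GABAergic median was −0.11 (0.02 otherwise), and the cause was not tested. Over genes with 2 or more features only, medians were −0.12 for general neuronal (9 genes), 0.021 for microglial (5), −0.13 for endothelial (7), 0.14 for glycolysis (15), −0.29 for neuropeptide (2) and −0.044 for clock genes (12), from fewer genes by construction. Medians that stayed within 0.1 but changed by over 1.5 times were −0.14 for proteasome, −0.062 for antioxidant, −0.14 for complex I, −0.028 for lysosomal, 0.099 for erythrocyte, 0.14 for astrocyte, 0.13 for p53 and −0.00606 for BCL2 genes, beside others with a median within 0.1 of 0. Of the named genes, SNX18 (1.10) and AVP (−5.59) moved with the scaling to 1 median absolute deviation. Others changed in size with zeros as not measured, where only the feature not listed at 0 remained. PPIL6 was then −1.08 (−2.61 otherwise), NDUFA6 0.088 (0.60), SCARB2 −0.18 (−0.53) and LHX6 0.75 (0.95). No paired analysis was possible because each time is 1 animal. With no intensities, features near background could not be told from the rest.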
